A study of Mus musculus with 2 samples.

Results

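The genes described here encode the mouse enzymes that add or remove methyl and acetyl groups on histones, together with the Chd chromatin remodelers. They were chosen by symbol: every protein-coding gene on an autosome in GENCODE M21 whose name begins with Kdm, Kmt, Setd, Hdac, Kat or Chd followed by a family number or, for Setdb1 and Setdb2, a letter. There were 60 such genes among 20722 autosomal protein-coding genes, and each is measured by the accessible chromatin at and around it. Family members on the sex chromosomes, such as Hdac6, Hdac8, Kdm5c and Kdm6a, are outside the rule. The symbols also take in Chd1l, and some Setd and Kmt5 proteins are known mainly or partly for substrates other than histone H3. Accessibility was mapped by ATAC-seq, in which a transposase inserts sequencing adapters into open DNA, in common myeloid progenitors of male C57BL/6J mice aged 5 to 6 weeks. These are bone marrow cells that give rise to granulocytes, macrophages, red cells and platelets. There were 2 libraries of 50000 cells each, labelled as biological replicates of 1 group. No treatment, mutant or second cell type was included, and nothing in the labels says whether a library came from 1 animal or from several. The comparisons are therefore between these genes and all autosomal genes, and between the replicates.

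Histone lysine methyltransferases (Kmt and Setd proteins), lysine demethylases (Kdm), acetyltransferases (Kat) and deacetylases (Hdac) set and erase the marks that distinguish active from silent chromatin. Methylation of lysine 4 of histone H3 (H3K4) marks promoters and enhancers, that of lysine 36 (H3K36) transcribed gene bodies, and that of lysines 9 and 27 (H3K9, H3K27) silenced chromatin. Chd proteins use ATP to space or move nucleosomes, and in subfamily II they are core members of the NuRD deacetylase complex. In blood formation these factors are known from leukaemia, where KMT2A is rearranged in humans, and from mouse knockouts in which progenitors fail.

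The evidence was a conservative list of 67395 merged accessible regions from both replicates. A gene was called open, or said to have a promoter region, where a region reached within 1 kb of the start of one of its protein-coding transcripts. A distal region had its summit, the point of highest signal, over 1 kb from every start, and was given to the gene with the nearest start within 100 kb. Each region carries the signal of the authors' peak caller, whose scale is not stated, so signals serve only to rank regions within a list. The percentile of a promoter is the rank of the gene's strongest promoter region among the 12846 autosomal genes with one. Marker genes separated the labelled cell type from some others but not all. All 9 progenitor genes, among them Kit, Cd34, Flt3 and Cebpa, had a promoter region, against 0 of 5 mature neutrophil genes, 0 of 4 T cell genes and 0 of 5 genes of tissues outside blood. Of 5 macrophage genes 4 had one, of which Mertk, at percentile 83.0, and Adgre1, at 69.4, were in both replicates, and of 4 B cell genes only Pax5 had one, at 84.7 and in both. These 3 ranked above the highest progenitor gene, Flt3 at 56.1, and the part of other cells in the results was not tested.

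Nearly all of the enzyme and remodeler genes were open at a promoter. Of the 60 genes, 55 had a promoter region, which is 91.7% (95% Wilson interval 81.9 to 96.4), against 62.0% of all autosomal genes. The 5 genes without one were Chd3, Chd5, Hdac9, Kat2a and Kdm6b. The 60 genes have more annotated starts than most, with a median of 3 against 2, and a gene with more starts has more places where a region can count. Among genes with 3 starts, 15 of 15 had a promoter region against 70.2% of all genes with 3, and among genes with 2 starts 12 of 13 had one against 57.8%. With 1 start the count was 5 of 7 against 49.6%, with 4 or 5 starts 15 of 17 against 81.3%, and with 6 or more 8 of 8 against 88.1%. When only the 5′ end of each gene record was used, 51 of 60 genes had a region there (85%, 73.9 to 91.9), against 58.1% of all genes. The 4 further genes lost were Chd7, Hdac4, Kat6b and Kdm4c, whose promoter regions lie at starts inside the gene record. The intervals cover counting error over genes only.

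**Figure D1:**
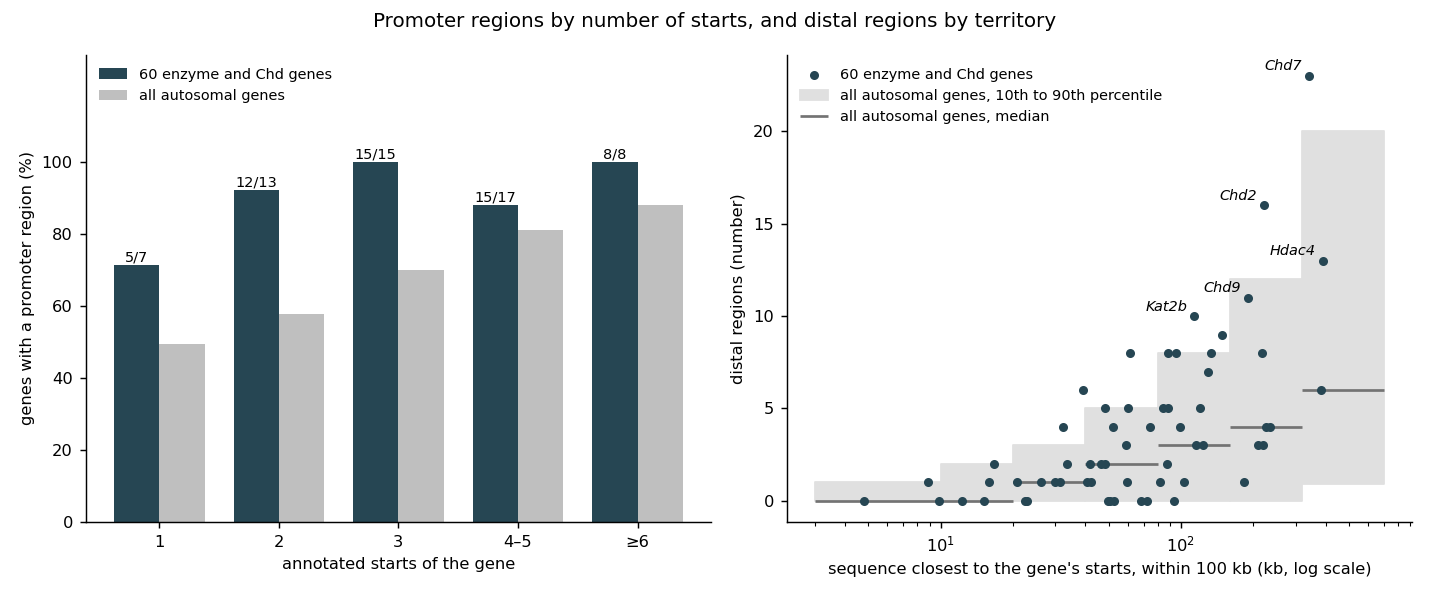
Left, percentage of genes with a promoter region (y) by number of annotated starts (x), with dark bars for the 60 genes and grey bars for all autosomal genes; the dark bar is the higher in each class, from 5/7 to 8/8. Right, number of distal regions (y) against the sequence that lies closest to the gene's starts (x, log scale in kb), with a point per gene and the median and 10th to 90th percentile of all genes in grey; Chd7, Chd2, Kat2b, Chd1, Chd5, Chd4 and Setd1b stand above the grey band.

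Most of the genes were open in each replicate's own list. Here and below that means the stricter of its deposited lists, and a region said to be in a replicate is in that list. In the list called from replicate 1 alone, 54 of 60 genes had a promoter region (90%, 79.9 to 95.3), against 57.4% of all genes. In that of replicate 2 alone there were 50 (83.3%, 72 to 90.7), against 53.0%. All 50 were also open in replicate 1, so that 83.3% were open in both, against 52.1% of all genes. Kat5, Kdm3b, Kdm5b and Kmt2a had a promoter region in replicate 1 only, and no gene had one in replicate 2 only. Kdm7a had one in the conservative list but in neither replicate's own list. Replicate 2's list was the shorter, with 37620 regions against 47535 in replicate 1. Across the 50 genes open in both, the promoter signals of the replicates had a Spearman rho of 0.887, against 0.918 over all genes open in both. This is a correlation over genes in 1 pair of libraries, and genes are not replicates.

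The strength of these promoters lay near the middle of all genes. Their median percentile was 53.4, against 50 over all genes by construction, and it was 50.9 in replicate 1 and 53.8 in replicate 2. Of the 55 genes 14 lay under the 25th percentile, 11 between the 25th and the 50th, 17 between the 50th and the 75th, and 13 at or above the 75th.

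**Figure D2:**
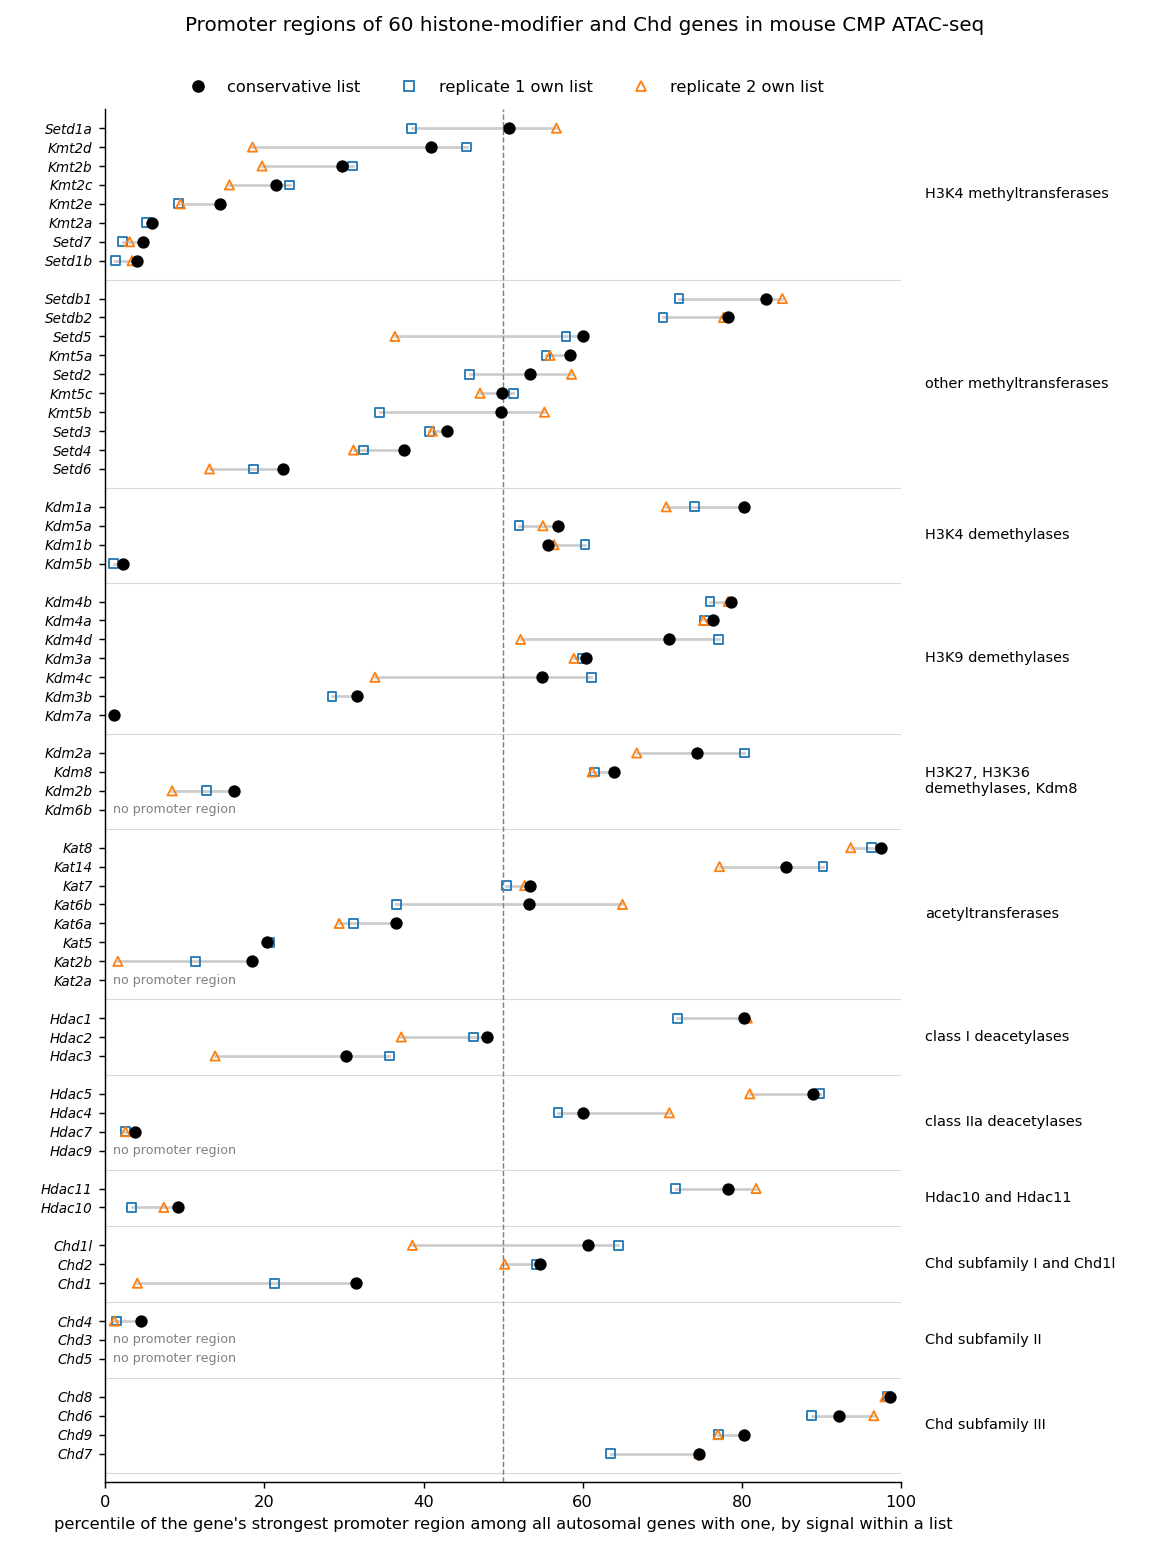
Percentile of each gene's strongest promoter region (x, 0 to 100, by signal among all autosomal genes with one) for the 60 genes in rows, grouped by what they do. Black circles are the conservative list, blue squares and orange triangles the replicates' own lists, and the dashed line is the 50th percentile; 7 of the 8 H3K4 methyltransferases sit left of it and the 4 Chd subfamily III genes right of it.

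By signal, the H3K4 methyltransferases had the lowest median promoter percentile of the 11 groups with more than 1 open gene. All 8 were open, their median percentile was 17.9 and the range 3.97 to 50.7. The median depends on the measure that ranks the regions: by the caller's −log10 p, which grows with the number of reads as well as with enrichment, all 8 stood higher, with a median of 41.5 and a range of 17.1 to 72.2. That was still the lowest of the groups, but close to the 45.7 of Chd subfamily I with Chd1l and nearer to the 50 of all genes. At the 5′ end of the gene record the median by signal was 18.8, above the 12.1 of Chd subfamily I with Chd1l. Both of these rankings were chosen after seeing the data. Setd1b, which encodes the catalytic subunit of a COMPASS complex, had a signal of 5.17, at percentile 3.97. It was 4.70 in replicate 1 and 5.87 in replicate 2. Setd7, a monomethyltransferase of H3K4 and of other proteins, was at percentile 4.74. Kmt2a, the MLL1 enzyme that maintains Hox expression in blood stem cells, had a signal of 5.57 at percentile 5.86. It was 5.76 in the own list of replicate 1, the only own list with a region there. Kmt2e, an MLL family member without established H3K4 methyltransferase activity, was at percentile 14.4, Kmt2c at 21.4, Kmt2b at 29.8, Kmt2d at 41.0 and Setd1a at 50.7. Kmt2c and Kmt2d are the MLL3 and MLL4 enzymes of enhancers, and Kmt2b and Setd1a act at promoters. In replicate 1 the 8 genes ran between percentiles 1.26 and 45.4. In replicate 2, with 7 open, they ran between 3.05 and 56.7.

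2 further measurements are given beside these ranks. The sequence around the starts of the 8 genes held much G and C in most of them, with a median of 74.3% (range 51.5 to 80.7) in the 301 bp around the 5′ end of the gene record. Ranked among genes with a region at that end, the 19 of the 60 that had one and at least 70% G and C had a median percentile of 37.2, against 36.9 for all genes of that class. The 20 with 60 to 70% had 55.4, against 57.3, and the 9 with 50 to 60% had 50.9, against 54.2. The 3 with under 50% had 19.2, the lowest median among the 60, against 41.1. Among all genes the lowest was the 36.9 of the class with at least 70%. Setd7, among the lowest ranks, had 63.1%. Over genes with a region at that end, the Spearman rho of G and C content with signal was -0.148 for 51 of the 60 genes and -0.097 for all. Second, the summit of the strongest promoter region lay over 1 kb from every start for 4 of the 8 genes, Kmt2d, Kmt2e, Setd1b and Setd7, although the region's edge came closer. These 4 summits lay nearer to the start of a noncoding transcript of another gene, at 345, 60, 34 and 118 bp in that order. A summit over 1 kb from every start was found for 7 of all 55 open genes (12.7%), the others being Chd7, Kat2b and Setd5, against 3.26% of all genes. The part of any of these in the low ranks was not tested.

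The promoters of Kmt2a and Chd4 are shown as examples of weak ones. The Kmt2a summit window, the summit with 50 bp on each side, at chr9:44881425-44881525 (GRCm38, − strand), is mostly G and C and held none of the 16 motifs searched. The Chd4 window at chr6:125095862-125095962 (+ strand) held an SP and a Myb match. Here and in all sequences printed, capitals mark motif matches, and promoter windows run in the direction of transcription.
Kmt2a: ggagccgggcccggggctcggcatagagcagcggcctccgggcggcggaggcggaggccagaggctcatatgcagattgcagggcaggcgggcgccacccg
Chd4: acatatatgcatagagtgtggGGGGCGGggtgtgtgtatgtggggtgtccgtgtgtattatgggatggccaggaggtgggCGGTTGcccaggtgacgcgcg

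The other methyltransferases, 10 genes for H3K9, H3K36, H4K20 and other substrates, were all open, with a median percentile of 51.6. Setdb1, the H3K9 methyltransferase that silences retroviral elements, was the strongest by signal, with 14.0 at percentile 83.0, and 11.9 in replicate 1 and 14.1 in replicate 2. Setdb2, its relative, was at 78.3, and its region also lies within 1 kb of a start of Cab39l. Setd2, which trimethylates H3K36, was at 53.4. The H4K20 enzymes were close together, with Kmt5a at 58.4, Kmt5c at 49.8 and Kmt5b at 49.7. Setd6 was the weakest by signal at 22.3, with 7.73 in the conservative list, 7.31 in replicate 1 and 7.36 in replicate 2. By −log10 p, a ranking chosen after seeing the data, the order differed. It ran from Setd5 at 25.5 to Kmt5c at 86.4, with Setdb1 at 53.5. By signal Setd5 was at 60, but through a region at an internal start. The region at the 5′ end of its gene record had a signal of 6.01, which ranks at percentile 9.16 among regions at that end. Kmt5b was alike, with 10.4 at its internal start and 5.74 at the 5′ end, where only the own list of replicate 1 had a region.

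Among the demethylases, 14 of 15 genes were open. The H3K4 demethylases were spread widely. Kdm1a (LSD1), which acts with the CoREST complex, was at percentile 80.3 (signal 13.7, and 12.1 and 12.5 in replicates 1 and 2). Kdm5a was at 56.9, Kdm1b at 55.6 and Kdm5b at 2.27. The Kdm5b region, with a signal of 4.73, was in the own list of replicate 1 at 4.61 and not in that of replicate 2. Of the H3K9 demethylases, Kdm4b was at 78.7, Kdm4a at 76.4, Kdm4d at 70.8, Kdm3a at 60.4, Kdm4c at 54.9 and Kdm3b at 31.6. Kdm4d, best known from testis, shares its region with Cwc15, a splicing factor gene, so its openness cannot be told apart from that of its neighbour. Kdm7a was at percentile 1.04, with a signal of 4.28, the lowest of the 55. Kdm4b had signals of 12.3 and 13.3 in replicates 1 and 2, and Kdm4a 12.2 and 13.0, so that both replicates placed them alike. Kdm4c, open at an internal start, had 10.9 in replicate 1 and 9.32 in replicate 2, at percentiles 61.1 and 33.9 of their lists. Kdm2a and Kdm2b, the H3K36 demethylases that bind unmethylated CpG islands, were at 74.4 and 16.2, and Kdm8 was at 63.9. The ranks of Kdm2a and Kdm2b came from internal starts, and their regions at the 5′ end ranked at 64 and 11.7 among regions at that end.

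Kdm6b (JMJD3), the H3K27 demethylase induced by inflammatory signals, had no promoter region in any list of either replicate. The nearest region of the conservative list had its summit 4029 bp downstream of the start, with a signal of 3.61. Even so, 5 distal regions were nearest to Kdm6b, and 4 of the 5 were in both replicates' own lists. The strongest of them lies 18.6 kb upstream in an intron of Dnah2, with a signal of 11.6, and 10.2 in replicate 1 and 10.5 in replicate 2. Its summit window at chr11:69432207-69432307 (GRCm38, + strand, as for all distal windows) held a match to the core of the CTCF site and Myb matches.
Kdm6b: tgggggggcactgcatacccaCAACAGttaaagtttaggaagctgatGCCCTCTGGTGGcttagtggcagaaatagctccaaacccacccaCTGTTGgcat

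The acetyltransferase genes were open in 7 of 8 cases. Kat8 (MOF), which acetylates lysine 16 of histone H4, had a signal of 17.4 at percentile 97.5, and 15.6 and 15.8 in replicates 1 and 2. Kat14, a subunit of the ATAC complex, was at 85.6 and shares its region with Pet117. Kat7 (HBO1) was at 53.4, Kat6b (MORF) at 53.3 and Kat6a (MOZ), needed for blood stem cells in the mouse, at 36.5. Kat5 (TIP60) was at 20.3 and in the own list of replicate 1 only. Kat2a (GCN5) had no promoter region, with the nearest summit 1417 bp and the edge of that region 1129 bp upstream of its start. Its paralog Kat2b (PCAF) was open at percentile 18.4, through a region with its summit 1430 bp downstream of its start and its edge within 1 kb. A second Kat2b region, at the start, had a signal of 5.57. In the own lists of replicates 1 and 2, Kat2b was at percentiles 11.3 and 1.58, which come from different regions. The first is the downstream region, at 6.60, and the second the region at the start, at 5.33. The downstream region had 8.07 in replicate 2, where it did not come within 1 kb of the start. In the larger pseudoreplicated list of the series, a peak with a signal of 3.36 lay at the start of Kat2a.

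All 3 class I deacetylase genes were open, Hdac1 at percentile 80.3, Hdac2 at 48 and Hdac3, the deacetylase of nuclear receptor corepressor complexes, at 30.3. Hdac1 had signals of 11.9 in replicate 1 and 13.6 in replicate 2, Hdac2 9.62 and 9.61, and Hdac3 8.79 and 7.46. The class IIa genes, whose proteins shuttle between nucleus and cytoplasm, differed more. Hdac5 was at 88.9, Hdac4 at 60.1 and Hdac7 at 3.75, and Hdac9 had no promoter region in any list. Hdac11 was at 78.3 and Hdac10 at 9.09.

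By signal, the Chd subfamilies stood far apart. The subfamily III genes Chd8, Chd6, Chd9 and Chd7 were at percentiles 98.6, 92.2, 80.3 and 74.6. The rank of Chd7 came from a region near a start 164.8 kb into its gene record, with none at the 5′ end. By −log10 p, a ranking chosen after seeing the data, the subfamilies overlapped. Subfamily III ran from 41.8 at Chd7 to 99.7 at Chd6, and subfamily I with Chd1l from 9.7 at Chd1 to 93.8 at Chd2. Their medians were 87.4 and 45.7. Chd8, a remodeler known from autism genetics in humans, had the highest signal of all 55, 18.2, and 16.3 and 17.4 in replicates 1 and 2. A second region of Chd8, at the 5′ end of the gene record, had 17.5, with 16.5 and 16.4 in the replicates. Chd6 had a signal of 15.7, with 13.8 in replicate 1 and 16.7 in replicate 2. Of the NuRD subfamily II, Chd4 was at 4.48 and Chd3 and Chd5 had no promoter region. The nearest summit to a Chd3 start was 1815 bp upstream with a signal of 7.83, and that to a Chd5 start 2195 bp downstream with a signal of 6.01. A weaker peak lay at a Chd5 start in the pseudoreplicated list of the series, with a signal of 2.05, and in that of replicate 1, with 2.44. Chd4 is the main NuRD ATPase of blood cells, whereas Chd5 is known mainly from the nervous system and testis. Chd2 was at 54.7 through a start 4.21 kb into the gene record, and the region at the 5′ end had a signal of 6.11 against 10.9 there. Chd1, whose human protein binds trimethylated H3K4, was at 31.5, also through an internal start, and Chd1l, a PARP-dependent remodeler, at 60.7. That Chd1 region was in replicate 1's own list and not in replicate 2's. Chd1 was at percentiles 21.3 and 4.03 in the lists of replicates 1 and 2, and at 12.1 among regions at the 5′ end.

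The promoters of Chd6, Kdm4a and Hdac4, all above the 50th percentile, are shown for their NFY, SP and Myb matches. The summit window of Chd6 at chr2:161109120-161109220 (− strand) held an NFY match. That of Kdm4a at chr4:118180062-118180162 (− strand) held an NFY and a Myb match, and that of Hdac4 at chr1:92180483-92180583 (− strand) an SP and a Myb match.
Chd6: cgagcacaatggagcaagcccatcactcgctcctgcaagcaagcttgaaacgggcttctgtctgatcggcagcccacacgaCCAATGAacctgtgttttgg
Kdm4a: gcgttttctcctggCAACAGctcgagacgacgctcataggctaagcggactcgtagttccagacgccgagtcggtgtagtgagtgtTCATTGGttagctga
Hdac4: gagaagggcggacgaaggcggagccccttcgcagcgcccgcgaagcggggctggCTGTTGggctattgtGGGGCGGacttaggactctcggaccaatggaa

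Of the 55 open genes, 7 share their strongest promoter region with a protein-coding start of a neighbour (12.7%), against 19.2% of all open genes. Besides Setdb2, Kdm4d and Kat14, these were Hdac3 with Rell2, Kdm1b with Tpmt, Kdm5a with Ccdc77 and Setd3 with Ccnk. For these 7 a region cannot be assigned to 1 gene of the pair. Starts of noncoding transcripts were not counted, so other regions can also lie at the start of another gene, as for Kmt2d, Kmt2e, Setd1b and Setd7.

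Of the 16 motifs, 4 were found in more than 2 of the 55 strongest promoter regions. The NFY motif (CCAATCA or CCAATGA) was in 16.4%, against 10.4% of the 11649 regions that are strongest for any gene. The SP motif (GGGGCGG) was in 18.2%, against 21.7%, the ETS motif (CCGGAAG) in 10.9%, against 9.91%, and the Myb motif (CAACNG) in 16.4%, against 13.7%. Both strands were searched, and a match describes letters, not a bound factor. With 9, 10, 6 and 9 regions holding these motifs, none of the shares was tested.

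More distal regions lay around these genes than around the median gene, and they also have more space to hold them. The 60 genes had 229 distal regions, a median of 2.5 and a mean of 3.82 per gene, against 1 and 2.12 over all genes. At least 1 was found at 48 of 60 (80%, 68.2 to 88.2), against 61.6%, and at least 8 at 11 of 60 (18.3%, 10.6 to 29.9), against 6.13%. Of the 229, 10 had an edge within 1 kb of a start, against 767 of all 44913 distal regions, so these count as promoter regions too. The 60 genes are long, with a median of 47.5 kb against 17.6 kb. The sequence closer to their starts than to any other start was a median of 65.0 kb, against 44.8 kb. Per 100 kb of this territory the median was 3.76 regions, against 1.99. Within classes of similar territory, 27 of the 60 genes had more distal regions than the median gene of their class, 16 as many and 17 fewer. That is 45% above, against 34.5% of all genes. In the class of 40 to 80 kb the medians were equal at 2, for 17 of these genes and 4622 in all, and in that of 80 to 160 kb they were 5 and 3, for 16 and 4318 genes.

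The Chd family held 80 of the 229, with a median of 7 over its 10 genes. The Kmt and Setd genes held 47, the Kdm genes 44, the Hdac genes 32 and the Kat genes 26. Chd7 had 23, Chd2 16, Hdac4 13, Chd9 11, Kat2b 10 and Chd1 9, so that these 6 genes held 82. At least as many were found at 23 autosomal genes, Chd7 among them. At the other end, 12 genes had none: Chd8, Hdac1, Hdac3, Kat2a, Kat8, Kdm1a, Kdm4a, Kdm5a, Kmt2b, Kmt5b, Setd2 and Setdb2. Of these, 11 had a promoter region, and Chd8 and Kat8 had the strongest promoters of all 60 by signal. By −log10 p they were at percentiles 91.6 and 73.7, below the 99.7 of Chd6, which had 4 distal regions. The 3 class I deacetylases had 1 distal region between them, at Hdac2, whereas the 4 class IIa genes had 25. Their territories differ too, with 22.4, 182.2 and 9.83 kb for Hdac1, Hdac2 and Hdac3, against 391.9, 46.4, 74.6 and 381.2 kb for Hdac4, Hdac5, Hdac7 and Hdac9.

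**Figure D3:**
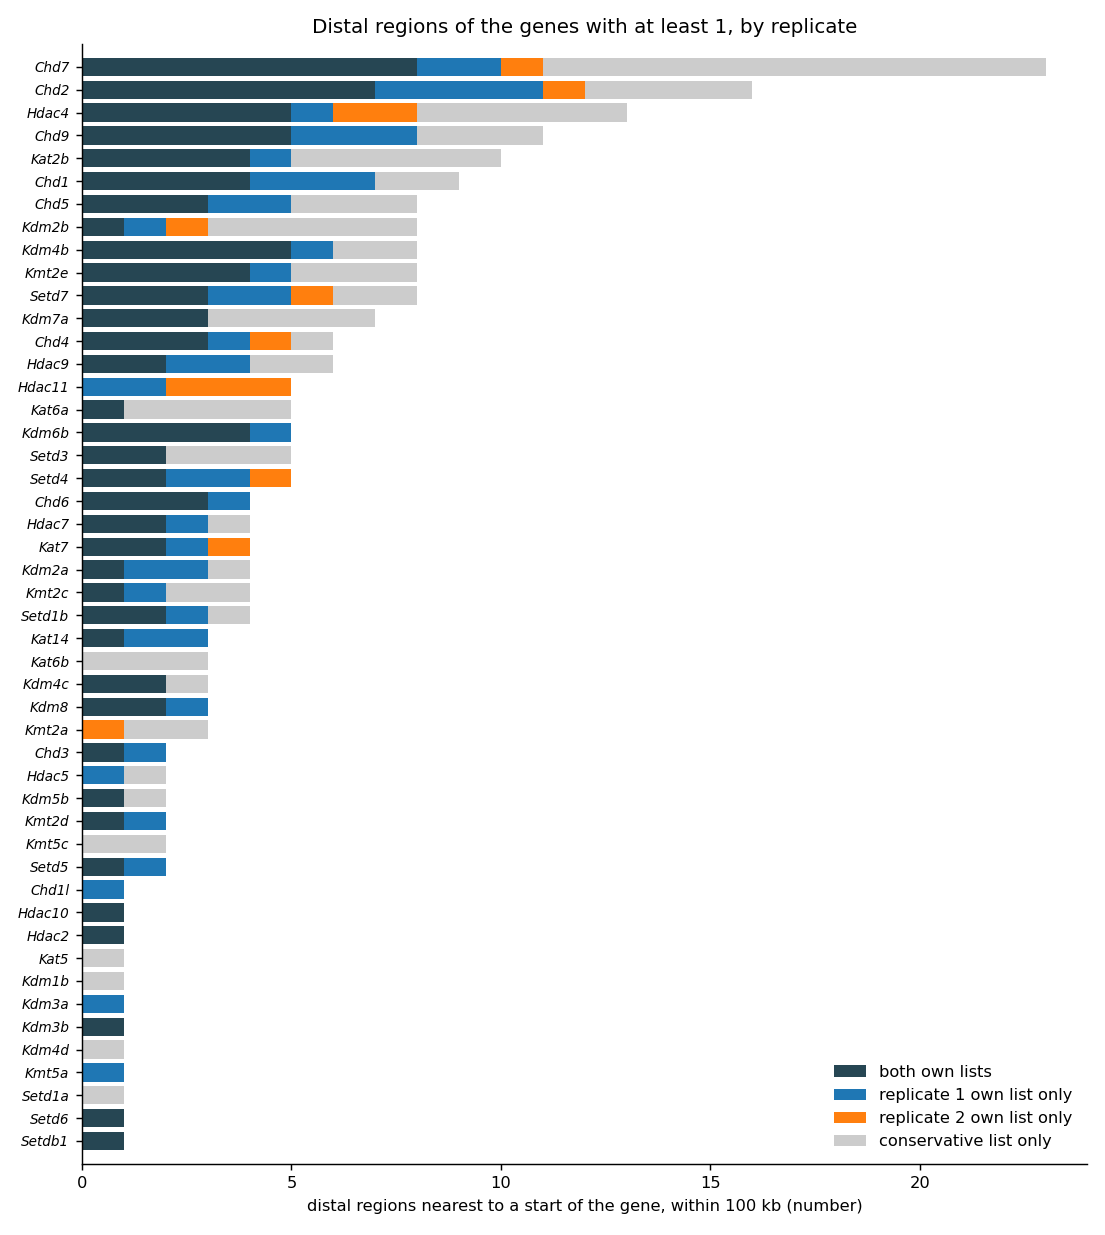
Number of distal regions (x) for each of the 48 genes with at least 1 (rows), stacked by whether the region was met in both replicates' own lists (dark), in that of replicate 1 only (blue), in that of replicate 2 only (orange) or in neither own list (grey, keyed as conservative list only). Chd7, with 23, has the longest bar, of which 8 regions were in both own lists.

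Both replicates' own lists held 91 of the 229 distal regions (39.7%), against 44.4% of all distal regions. A further 46 were in that of replicate 1 only, 13 in that of replicate 2 only and 79 in neither. Many of those outside an own list were in the same replicate's larger pseudoreplicated list. The distal signal was slightly below that of all distal regions, with a median of 7.42 against 8.05. In both own lists, Chd7 kept 8 of 23, Chd2 7 of 16, Hdac4 5 of 13, Chd9 5 of 11 and Kdm4b 5 of 8, whereas Kdm2b kept 1 of 8, Kat6b 0 of 3 and Hdac11 0 of 5. By place, 129 of the 229 lay in introns (56.3%), against 50.2% of all distal regions, and 125 of those in an intron of the gene itself. Intergenic were 91 (39.7%), against 45.4%, and exonic 9 (3.93%), against 4.35%. Within 20 kb of the start lay 55.0%, against 54.3%. A start of a noncoding transcript lay within 1 kb of 8.73%, against 8.42%.

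Chd7, the remodeler mutated in human CHARGE syndrome, had the most distal regions and no promoter region at its first starts. The regions that made it open lie at starts 19.9 and 164.8 kb into the gene record. The second of these, with a signal of 13.0 (11.1 in replicate 1 and 13.0 in replicate 2), has its summit in an exon 1038 bp upstream of that start and is counted among the 23 distal regions too. The strongest distal region, 33.3 kb downstream of the last start and beyond the gene's end, had a signal of 19.2, with 17.3 and 16.8 in replicates 1 and 2, and stood at percentile 99.6 of all distal regions. 3 others in introns had signals of 14.9, 13.0 and 9.46, lying 44.0, 12.2 and 17.6 kb upstream of their nearest start. Those of 14.9 and 13.0 were in both own lists, at 13.2 and 13.3 and at 11.7 and 12.5. That of 9.46 was in the own list of replicate 2 only, though in both replicates' pseudoreplicated lists.

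**Figure D4:**
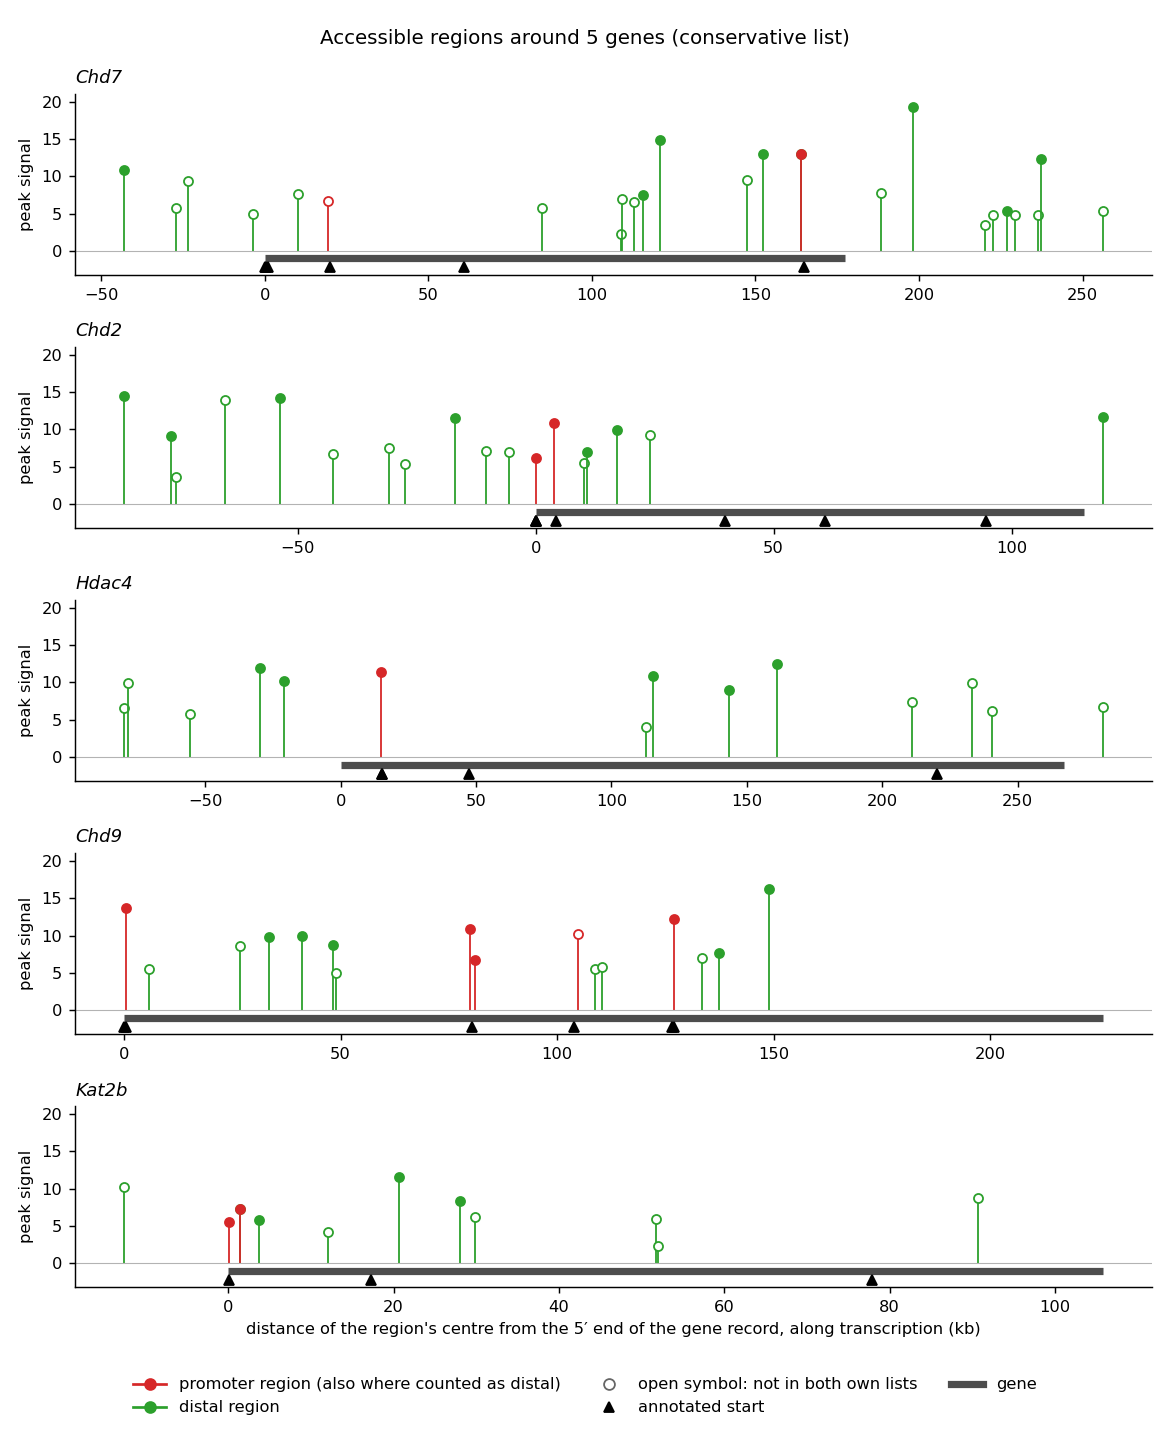
Signal of each region (y, the authors' scale) against its distance from the 5′ end of the gene record along transcription (x, kb) for Chd7, Chd2, Hdac4, Chd9 and Kat2b. Red stems are promoter regions and green ones distal regions, filled symbols are met in both replicates' own lists, triangles are annotated starts and the bar is the gene; the first starts of Chd7 carry no red stem, and its highest stem, 19.2, lies past the gene.

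3 distal windows of Chd7 are shown because they differ in their motifs. The strongest, at chr4:8888502-8888602, held none of the 16. That 12.2 kb upstream of its nearest start, at chr4:8842956-8843056, held an AP-1 (TGANTCA) and an IRF match (GAAANNGAA), and that 17.6 kb upstream, at chr4:8837588-8837688, a PU.1 match (GAGGAAGT).
Chd7: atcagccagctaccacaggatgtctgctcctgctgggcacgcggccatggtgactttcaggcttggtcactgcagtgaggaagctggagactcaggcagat
Chd7: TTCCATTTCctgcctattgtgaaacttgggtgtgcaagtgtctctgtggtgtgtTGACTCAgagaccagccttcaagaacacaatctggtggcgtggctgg
Chd7: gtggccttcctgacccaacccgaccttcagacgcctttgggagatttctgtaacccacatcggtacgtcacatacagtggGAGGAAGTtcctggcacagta

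At Chd2, 11 of the 16 regions lay upstream of the gene. The strongest, 86.6 kb upstream, had a signal of 14.4 and 13.0 in each replicate, and that 53.6 kb upstream had 14.2, with 13.0 and 13.5 in replicates 1 and 2. A region with a signal of 13.9, 65.2 kb upstream, was in the own list of replicate 2 only, though in both replicates' pseudoreplicated lists. An intronic region, 15.6 kb upstream of its nearest start and with a signal of 9.20, held a match to the longer NF-E2 motif (GCTGAGTCA), which contains AP-1. Its window lies at chr7:73517542-73517642.
Chd2: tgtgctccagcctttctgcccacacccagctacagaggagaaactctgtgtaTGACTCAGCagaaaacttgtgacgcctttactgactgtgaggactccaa

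Hdac4, which restrains MEF2 factors, had 13 regions, 5 of them in both replicates. The strongest, 58.9 kb upstream of its nearest start in an intron, had a signal of 12.5, with 11.4 in replicate 1 and 11.5 in replicate 2. An intronic region 68.0 kb downstream of its nearest start had 10.8, and an intergenic one 36.1 kb upstream 10.2. Both held a RUNX match (TGTGGTT), the site of the Runx1 factor of blood progenitors, in windows at chr1:92080327-92080427 and chr1:92216404-92216504. Hdac9, without a promoter region, had 6 distal regions, all in its own introns, and the strongest, with 12.6 (11.4 in replicate 1 and 10 in replicate 2), held an AP-1 match at chr12:34664904-34665004.
Hdac4: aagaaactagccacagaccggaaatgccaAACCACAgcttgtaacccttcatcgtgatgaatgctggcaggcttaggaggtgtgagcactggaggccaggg
Hdac4: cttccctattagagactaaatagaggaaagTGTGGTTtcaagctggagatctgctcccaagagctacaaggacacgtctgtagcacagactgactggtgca
Hdac9: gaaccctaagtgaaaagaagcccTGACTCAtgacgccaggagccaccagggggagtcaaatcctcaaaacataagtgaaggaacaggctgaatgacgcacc

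Chd9 had 5 promoter regions, the most of the 60 genes, at starts along the gene, and 11 distal regions, all in its introns. The strongest, 21.8 kb past its last start, had a signal of 16.2, with 14.2 and 14.7 in the replicates. More than 1 promoter region was found at 21 of the 55 open genes (38.2%), against 23.5% of all open genes. Kat2b had 10 distal regions, 9 of them in its introns and 4 in both own lists. Among these 4 is the region 1430 bp downstream of its start, with a signal of 7.27, which is also counted as a promoter region. A distal region of Kat2b 3.56 kb downstream of its start, with a signal of 5.75, held a Myb match and a CTG followed after 7 bases by GATAA, at chr17:53570480-53570580. Kdm2b had 8, of which a single one, 4.82 kb upstream and with a signal of 13.7, was in both own lists, and it held an IRF match at chr5:122994596-122994696.
Kat2b: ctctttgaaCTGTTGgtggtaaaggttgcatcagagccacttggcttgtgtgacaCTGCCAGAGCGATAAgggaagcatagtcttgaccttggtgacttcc
Kdm2b: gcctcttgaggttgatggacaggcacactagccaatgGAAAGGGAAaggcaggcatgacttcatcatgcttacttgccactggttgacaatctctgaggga

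Chd1 and Kmt2e each had an intronic region with more than 1 blood-factor match. That of Chd1, 5.05 kb downstream of its nearest start, had a signal of 9.88. It was in the own list of replicate 1 only (8.52), though in both replicates' pseudoreplicated lists. Its window at chr17:15743531-15743631 held a RUNX match, a C/EBP match (TTGCNNAA) that overlaps it by 1 base, and AGATAA, the site of GATA factors. That of Kmt2e, 5.45 kb downstream, had a signal of 9.09, with RUNX and GATA matches at chr5:23490952-23491052. It too was in the own list of replicate 1 only (8.38), though in both pseudoreplicated lists. Among the 8 distal regions of Kmt2e, the strongest lay 47.4 kb upstream with a signal of 14.4, and 12.6 and 15.2 in replicates 1 and 2. Its summit is 39 bp from a start of the noncoding gene 4930580E04Rik. Another of the 8, with a signal of 6.83, is also counted as the promoter region of Kmt2e.
Chd1: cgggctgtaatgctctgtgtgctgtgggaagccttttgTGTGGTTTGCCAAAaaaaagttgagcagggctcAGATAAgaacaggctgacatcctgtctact
Kmt2e: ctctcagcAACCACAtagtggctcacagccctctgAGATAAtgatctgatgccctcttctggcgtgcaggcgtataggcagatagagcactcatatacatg

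Kdm4b, Setd7, Chd5 and Kdm7a had 8, 8, 8 and 7 distal regions. Of the 8 at Kdm4b, 7 lay in its introns, and the strongest, 31.7 kb downstream of its first start, had a signal of 12.3, with 9.61 in replicate 1 and 12.7 in replicate 2. At Setd7 the strongest lay 43.2 kb upstream, with a signal of 13.2, and 12.9 and 10.4 in replicates 1 and 2. The strongest near Chd5 lay 5.51 kb upstream in an exon of Rpl22, with a signal of 11.1, and within Chd5 the strongest, 23.5 kb downstream, had 9.20, with 7.97 and 8.98 in the replicates. Kdm7a, the weakest promoter of the 55, had 7 distal regions, 3 of them in both replicates. The region 1.33 kb downstream of its start had a signal of 7.41, with 6.80 in replicate 1 and 8.19 in replicate 2, above the 4.28 of its promoter region.

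Of the 16 motifs, 5 had a higher share in these distal regions than in all distal regions (ETS, NFY, SP, CRE and NF-E2) and 11 a lower one. The NFY motif was in 3.93% of the 229, against 2.38%, the ETS motif in 2.18%, against 1.5%, and the SP motif in 2.62%, against 2.54%. The PU.1 motif was in 4.37%, against 6.71% of all 44913 distal regions, and the RUNX motif in 6.55%, against 8.46%. GATA was in 4.80%, against 7.91%, C/EBP in 3.49%, against 5.58%, and AP-1 in 4.80%, against 5.62%. NF-E2 was in 1.31%, against 1.02%, IRF in 3.49%, against 3.52%, Myb in 15.7%, against 16.7%, and CTG followed by GATAA after 7 to 9 bases in 1.31%, against 2.50%. CTCF was in 6.11%, against 8.16%. The shares rest on at most 36 of the 229 regions and were not tested.

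A list of 77 other autosomal chromatin genes, made of subunits of the enzymes' complexes and of separate enzymes and remodelers, was also mostly open. Of these, 75 had a promoter region (97.4%), against 62.0% of all autosomal genes, and 66 had one in both replicates' own lists, where the share of all genes was 52.1%. Their median percentile was 39.2. All 10 COMPASS subunits, which complete the Kmt2 and Setd1 enzymes, were open, as were all 18 genes of acetyltransferase complexes, all 6 sirtuins and all 12 other remodelers. Of 14 deacetylase complex genes, Mta1 was not open, and of 17 other histone methyltransferases and demethylases Prdm2 was not. The acetyltransferase Ep300 was at percentile 44.0 and its paralog Crebbp at 28.7, and Ezh2, the H3K27 methyltransferase of Polycomb, at 73.4. The 77 genes had 230 distal regions in all, a median of 2, against 1 over all genes. Tbl1xr1 had 16 and Mta3 14, both from the deacetylase complexes, which held 76.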

How the data were processed

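Accessible regions came from deposited peak lists of 2 ATAC-seq libraries, on mm10 per the labels. Which aligner and peak caller were run, and whether reads were shifted for the transposase, is not given in the sources used here. The authors deposited a signal and a −log10 p value per peak, with no read counts, so the depth of a library is unknown and counts could not be tested. Signal values were used to rank and describe regions within a list. The main list was the conservative list thresholded on the irreproducible discovery rate (IDR), and each replicate's own IDR list compared the replicates. Overlapping peaks were merged, keeping the strongest summit. GENCODE M21 gave the genes and RefSeq the GRCm38 sequence, and motifs were matched on both strands within 50 bp of the summit. Regions were shared when they met by 1 bp. No list of genes was tested: counts and medians stand beside those of all autosomal genes. Any gene of the 60 could be named, and beyond them listed chromatin genes, genes sharing a promoter region and host genes. The genes, lists and most alternatives were chosen with earlier results of these data known. Distances and promoter calls were checked on simulated regions, where all 200 planted genes were found. Python 3.11.15, pandas 2.3.3, NumPy 2.4.6, SciPy 1.17.1 and pysam 0.24.0 were used.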

Additional observations from a re-analysis of the deposited data

How the results depend on the processing

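The share of all genes open stands in brackets after each count of open genes. The count, 55 (62.0%), was 41 in the upper 50% of regions (44.2%), 58 with a window of 2500 bp (66.1%), 53 with one of 500 bp (60.1%) and 51 at the 5′ end of the gene record (58.1%). It was 55 to 57 in the other series lists (61.8 to 69.8%), and 50 (53.0%) and 54 (57.4%) without replicate 1 and without replicate 2. The count open in both replicates, 50 (52.1%), was 55 with pseudoreplicated lists (64.4%) and 42 with equal numbers of regions (47.4%). Distal regions, 229 of 44913, were 400 of 82144 in the pseudoreplicated list, 410 of 82265 in the replicated list, 93 of 20937 in the upper 50%, 91 of 19919 among regions in both own lists and 105 to 143 without one replicate, so their number follows the length of the list. They were 193 of 37470 within 50 kb and 240 of 41317 when given to open genes only. Without regions whose edge comes within 1 kb of a start, a setting chosen after seeing the data, they were 219 of 44146. The median percentile of 53.4 was 58.5 in both the pseudoreplicated and the replicated list, 44 in the upper 50%, 46.7 among regions in both own lists and 50.9 to 53.8 without one replicate. It was 60.8 ranked by −log10 p and 48.3 at the 5′ end of the gene record, both chosen after seeing the data, and the cause was not tested. The median of the H3K4 methyltransferases, 17.9, was 41.5 by −log10 p, 18.8 at the 5′ end and 15.6 to 16.2 without one replicate, also chosen after seeing the data, and the cause was not tested. No paired analysis was possible because there is 1 group.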
